A study of Zea mays with 56 samples.

Results

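Pollen and primary root were compared within 3 maize plants, numbered 69, 74 and 75, that gave both tissues. These are 6 of the 56 libraries of the series, chosen by matching the plant number in the pollen label to that in the root label. All 6 libraries carry the genotype label W22 MuActive: the plants came from a Mu-active father and a Mu-inactive mother, both of the W22 inbred line. An endosperm chip was cut from each kernel before sowing, the kernel was grown, and the root and the mature pollen came from the same plant. The genotype label of the endosperm chip of plant 74 is B73 MuKiller & W22 MuActive, while its leaf, root and pollen name W22 MuActive only. Leaf was available for plants 74 and 75. Leaves of the Mu-inactive mother line, in 4 libraries, gave the background of the method. Root and leaf DNA was prepared with a column kit and pollen and endosperm DNA with a CTAB method, so between pollen and root the effect of tissue and that of extraction cannot be told apart. The age of the roots is not stated in the sources used here.

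Mu elements are DNA transposons of maize that cut themselves out and insert elsewhere, and they favour new places in and near genes. An insertion that came in with a parental gamete is carried by all body cells of the plant. A new insertion is carried only by the descendants of the cell in which it happened, a sector, so an early event gives a large sector and a late event a small one. The primary root descends from the root pole of the embryo, whereas pollen descends from subepidermal cells of the shoot tip that also contribute to leaves. An insertion in pollen can be passed to the next generation, and one in a root cannot. MuSeq2, the assay used here, ligates an adapter to sheared DNA and amplifies the DNA beside Mu ends, so each site has a count for its left and its right border.

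A site's relative abundance is its count divided by the library's reference level, the median of its counts at 28 sites that reached 10 counts everywhere among the 50 undiluted libraries. A value of 1 is therefore the level of an insertion that all plants share. Total counts were 1800456, 604168 and 634721 in root 69, 74 and 75, and 181502, 60167 and 42383 in pollen 69, 74 and 75. Reference levels were 21291, 8704 and 9404 in root against 1478.5, 698.5 and 451 in pollen. Pollen was thus the shallower library in each pair, and 1 count in pollen was a relative abundance of 0.000676, 0.00143 and 0.00222. The floor of 3 counts was 0.00203, 0.00429 and 0.00665 in pollen 69, 74 and 75 and 0.000141, 0.000345 and 0.000319 in the roots. A relative abundance of 0.01 took 15, 7 and 5 counts in pollen but 213, 88 and 95 in root. PCR counts are not known to be separate molecules, so the intervals (95%, exact Poisson) and floors given here cover counting error only. Nothing in the labels says whether the libraries of a tissue were prepared apart, and there was 1 library for each tissue of a plant.

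The inherited insertions were used first to check that the labels pair the right libraries. Root 69 and pollen 69 had 46 sites in common at 0.1 or more, root and pollen of plant 74 had 39, and those of plant 75 had 33. The 6 combinations of different plants had 9 or 10. The plant numbers therefore matched in all 3 pairs, including pollen 69, whose title and description name different plant families.

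Nearly all inherited insertions were found in both root and pollen. A site was called inherited when it stood at 0.1 or more in the endosperm and in root or pollen, and had 0 counts in all 4 Mu-inactive leaf libraries. This gave 47 sites in plant 69, 39 in plant 74 and 33 in plant 75. Of these, 46 of 47, 39 of 39 and 33 of 33 were at 0.1 or more in both root and pollen. The median relative abundance was 0.861, 0.637 and 0.816 in root 69, 74 and 75, and 0.987, 0.596 and 0.851 in pollen. Pollen was thus higher in 2 plants and lower in 1. The mean difference of pollen minus root was 0.0400 ± 0.0839 (SD, n = 3; exact sign-flip test, two-sided, p = 0.75), and 3 pairs cannot give a p below 0.25. The difference was smaller than its spread between plants, it was 0.0806 without plant 74, and its sign turned without plant 69, to -0.00315, with the right border table alone, to -0.00424, and with the library total as the scale, to -0.21.

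Single inherited sites were also close in both tissues, with plant 69 the most scattered. The SD of log2 pollen over root across inherited sites was 0.72 in plant 69, 0.28 in plant 74 and 0.31 in plant 75. In plant 69, 5 of 47 sites differed by more than 2-fold, 3 lower and 2 higher in pollen. In plant 74 it was 1 of 39 sites, lower in pollen, and in plant 75 it was 1 of 33, higher in pollen. The background for this count was taken at 29 sites that all Mu-inactive libraries hold at 0.1 or more and that every plant should therefore carry: 10.3% of them passed 2-fold in plant 69 (10.3% lower and 0% higher in pollen), 6.9% in plant 74 (3.45% each way) and 10.3% in plant 75 (6.9% lower and 3.45% higher). The 5 of 47 inherited sites of plant 69 were near its background of 3 of 29. The 1 of 39 in plant 74 and 1 of 33 in plant 75 were below theirs, 2 of 29 and 3 of 29. No inherited site was shown to have been lost or gained between root and pollen.

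The site with the lowest pollen level lay at chr9:107579210-107579218 in plant 69. It stood at 0.305 in endosperm, 0.396 in root and 0.0643 in pollen, from 8438 counts in root and 95 in pollen, a log2 ratio of -2.62. Both borders were read in both libraries. It was chosen after its values were seen. Most of the scatter in plant 69 moved with the pollen library: against the endosperm of the plant, over 59 sites, the SD of the log2 ratio was 0.72 for pollen 69 and 0.19 for root 69. Technical libraries of one sample gave SDs of 0.099 in leaf 74, 0.16 in leaf 75 and 0.34 in pollen 79. The part of library preparation in the spread of pollen 69 was not tested.

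The condition of 0 counts in Mu-inactive leaf removes inherited sites that have a few stray counts there. With up to 0.01 allowed in Mu-inactive leaf, a setting added with the data in view, the inherited sites numbered 59, 57 and 43. Of these, 58, 57 and 43 were at 0.1 or more in both tissues. Their median was 0.848, 0.649 and 0.803 in root and 0.914, 0.604 and 0.836 in pollen. Of these sites, 14 were inherited by all 3 plants.

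**Figure D1:**
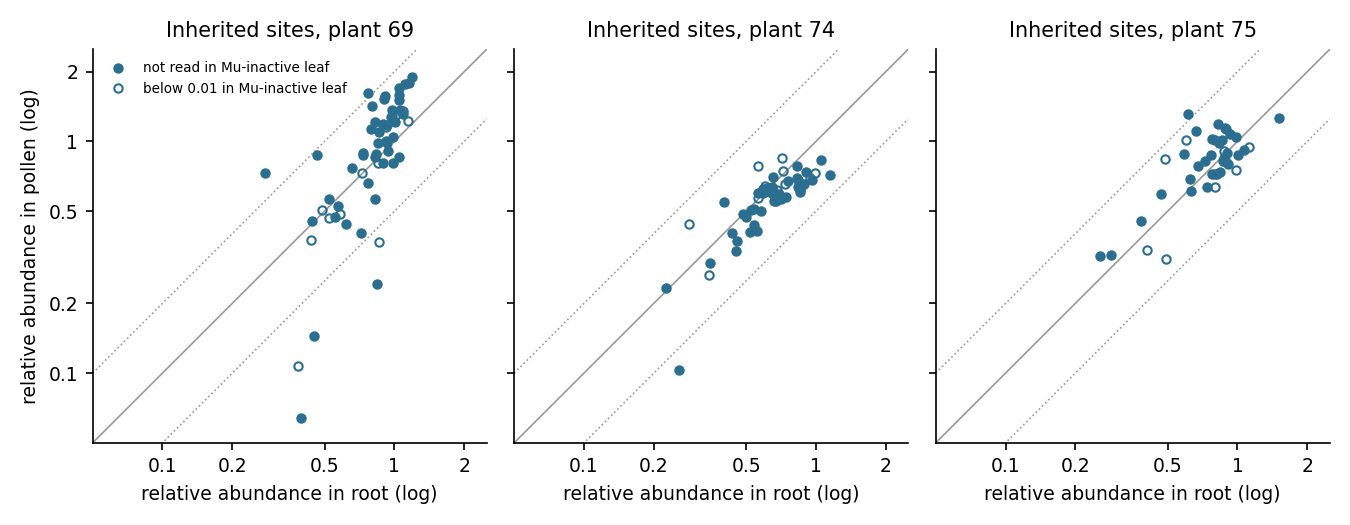
Relative abundance in root (horizontal, log scale) and in pollen (vertical, log scale) of each inherited site, with 1 panel for each plant. Filled points were not read in Mu-inactive leaf, open points were below 0.01 there, the solid line marks equal values and the dotted lines a 2-fold difference. The points of plants 74 and 75 lie close to the line, while those of plant 69 spread more widely, with an SD of 0.72 on the log2 scale.

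No site was high in root and in pollen while low in endosperm, the pattern of an insertion made in the embryo before the root and shoot lineages part. Such a site was defined as 0.1 or more in root and in pollen but below 0.1 in endosperm, and there were 0 in plant 69, 0 in plant 74 and 0 in plant 75. The count was also 0 at an inherited threshold of 0.05 or 0.2, with either border alone, with both borders required and with the library total as the scale. At 0.1 the pollen libraries give at least 45.1 counts, so a site of that size was within reach of the depth.

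New insertions were more abundant in pollen than in root in each plant. A new site had at least 1 count, was read in 1 plant only and not in Mu-inactive leaf, and was not inherited. The new-insertion load is the sum of relative abundance over new sites. It was 2.49 in root 69 and 14.5 in pollen 69, 1.52 in root 74 and 9.24 in pollen 74, and 1.51 in root 75 and 10.8 in pollen 75. Pollen was thus 5.82-fold, 6.07-fold and 7.17-fold above root, and the groups did not overlap. The mean log2 difference was 2.66 ± 0.16 (SD, n = 3; exact sign-flip test, two-sided, p = 0.25, the smallest that 3 pairs allow). The difference was far larger than its spread between plants, but no test of 3 pairs can pass 0.05. In the Mu-inactive leaf libraries the load was between 0.013 and 0.0817, well below the lowest root.

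In the other libraries of the series the ranges were wider. The 3 roots without pollen had loads from 1.53 to 3.35 and the 11 pollen samples without a root had loads from 5.40 to 36.2. The endosperm of plants 69, 74 and 75 had 12.2, 6.38 and 5.97, and the leaf of plants 74 and 75 had 9.33 and 5.97. Root was the lowest tissue in all 3 plants. Endosperm shares the CTAB extraction with pollen, and leaf shares the kit extraction with root. Leaf lay 6.12-fold and 3.97-fold above root in plants 74 and 75. The parts of extraction and of tissue in these differences were not tested.

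The excess in pollen came mostly from rare sites, those below 0.01. Their summed load was 1.64, 0.681 and 0.655 in root 69, 74 and 75, and 10.1, 8.0 and 8.43 in pollen. Pollen was 6.13-fold, 11.8-fold and 12.9-fold above root at rare sites. Large sectors, at 0.01 or more, differed less. Their summed load was 0.849, 0.843 and 0.85 in the roots and 4.45, 1.24 and 2.37 in pollen, which is 5.24-fold, 1.47-fold and 2.79-fold. The 3 roots thus had nearly the same load at large sectors, while the 3 pollen samples differed among themselves.

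Large sectors made up a smaller share of the load in pollen than in root, by a small margin in plant 69. They held 34.1%, 55.3% and 56.5% of the load in root 69, 74 and 75, and 30.6%, 13.4% and 22% in pollen. The difference was small in plant 69, at -3.44 percentage points, and -41.9 and -34.5 points in plants 74 and 75. The mean was -26.6 ± 20.4 points (SD, n = 3; exact sign-flip test, two-sided, p = 0.25). In plant 69 the share was higher in pollen with the left border alone (35.1% in root, 44.3% in pollen), the right border alone (37.4% and 38.5%), both borders required (46.5% and 50.7%) and a threshold of 0.05 (9.99% and 14.8%). The mean turned when sites needed 5 counts, to 13.4 points. In pollen 75, 5 counts are already 0.011, so that setting leaves it no rare site and sets its share to 100%.

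The load adds up counts and does not depend on how many sites they are spread over. Distinct sites were counted after thinning each library, by calculation, to the reference level of 451 in pollen 75. At that depth root 69, 74 and 75 had 614, 246 and 246 distinct new sites, and pollen had 3249, 3069 and 3139. Pollen had 5.29-fold, 12.5-fold and 12.8-fold more. With at least 5 counts per site the numbers were 336, 120 and 116 in root and 841, 129 and 105 in pollen, so plant 75 turned and the mean log2 difference was 0.43. The 3 pollen samples were close to each other, and root 69 had more new sites than the other two roots. Before thinning the order was not the same in all plants: root 69 had 10056 new sites against 6568 in pollen 69, while root 74 and 75 had 2252 and 2450 against 4427 and 3139. Without thinning the mean log2 difference was 0.24 in place of 3.24.

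Many rare sites rest on single counts. Sites of 1 count were 60.5%, 78.4% and 76.3% of the new sites in the roots and 50.6%, 82.5% and 79.4% of those in pollen. Their weight in the load was not alike. Sites below 0.003 held 1.30, 0.431 and 0.479 of the load in root 69, 74 and 75, and 6.34, 6.52 and 5.53 in pollen. In pollen 75 these were all sites of 1 count, and in pollen 74 sites of 1 or 2 counts, under the floor of 3 counts. The full loads were 9.24 in pollen 74 and 10.8 in pollen 75. When both borders had to be read, the load was 1.77, 1.21 and 1.15 in root and 8.39, 2.97 and 3.69 in pollen, which is 4.73-fold, 2.46-fold and 3.22-fold. With at least 5 counts per site it was 4.38-fold, 1.45-fold and 1.95-fold. A fixed count is a higher abundance in pollen than in root, and the part of depth in this narrowing was not tested. Pollen remained above root in every plant under these settings.

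**Figure D2:**
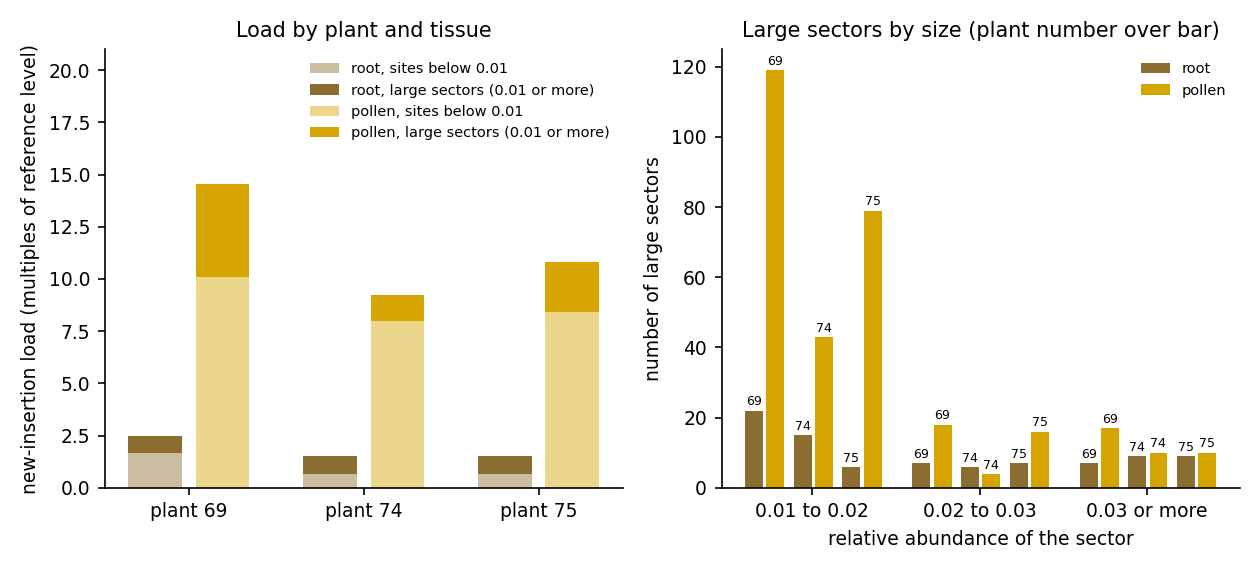
Left, the new-insertion load in multiples of the reference level for root and pollen of each plant, with rare sites (pale) below and large sectors (dark) on top. Right, the number of large sectors by relative abundance, with the plant number over each bar. Pollen exceeded root mostly through rare sites and through sectors of 0.01 to 0.02, and the bars at 0.03 or more are close in plants 74 and 75.

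Large sectors were more numerous in pollen, and the excess lay among the smallest of them. Root 69, 74 and 75 had 36, 30 and 22 large sectors and pollen had 154, 57 and 105. The mean log2 difference was 1.76 ± 0.73 (SD, n = 3; exact sign-flip test, two-sided, p = 0.25). Between 0.01 and 0.02 there were 22, 15 and 6 sectors in root and 119, 43 and 79 in pollen. At 0.03 or more, a threshold chosen after seeing the data, there were 7, 9 and 9 in root and 17, 10 and 10 in pollen. At that size plants 74 and 75 differed by 1 sector each, and plant 69 by 10. At 0.02 or more plant 74 had 15 sectors in root and 14 in pollen, so the sign was not the same in all plants.

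The depth behind these sectors differed between the tissues. The median large sector had 20, 9 and 6 counts in pollen 69, 74 and 75, against 363, 176.5 and 237 in root. Thinning the root counts to the depth of the pollen of the same plant, chosen after seeing the data, gave 36.1, 33.1 and 23.9 root sectors, close to the 36, 30 and 22 read. Thinning tests what low depth does to root, whose rare sites are fewer. How many of the pollen sectors of 0.01 to 0.02 were lower than 0.01 in the tissue was not tested. In the 11 other pollen samples large sectors ran from 32 to 921. The highest was pollen 79, at a reference level of 95.5 counts, where the rare load was 0 and each new site counted as a large sector. At levels of 4586 to 7022, pollen 76, 85, 99, 105 and 106 had 32, 52, 36, 46 and 57. At 2658.5 to 4077.5, pollen 42, 52 and 107 had 75, 223 and 154. Roots 61, 63 and 65, without pollen, had 34, 35 and 17. Both borders were read at 86.7% to 100% of the large sectors in the 6 libraries.

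The largest new sites were in different places in root and pollen; each was chosen for its level in one tissue, so the folds given here describe it and test nothing. The highest new site of all was in pollen 69 at chr7:179533765-179533773, at a relative abundance of 1.22 (95% interval 1.17 to 1.28). It had 1809 counts in pollen, 1338 on the left border and 471 on the right, and 0 counts in the root and the endosperm of the plant. Its level was thus at least 8683-fold lower in root than in pollen, against the floor of 3 counts. This site was as abundant in pollen 69 as an inherited insertion, whose median there was 0.987. It alone made up 27.5% of the load at large sectors in pollen 69, and without it that load was 3.22. The second site of pollen 69, at chr3:224084403-224084411, stood at 0.20 from 295 counts and also had 0 counts in root.

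In root 69 the 2 highest new sites stood at 0.0700 and 0.0630, at chr6:128587844-128587852 and chr6:165598504-165598512. They had 1491 and 1341 counts in root and 0 in pollen, where the upper limit of the interval was 0.0025. Pollen was at least 34.5-fold and 31-fold lower at these sites. No root 69 site read in 1 plant reached 0.1, whereas 5 pollen 69 sites did.

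Plant 74 had the smallest gap between the tissues at large sectors. Its highest root sites were at chr9:79878113-79878121 and chr4:26588640-26588648, at 0.0730 and 0.0704, with 635 and 613 counts in root and 0 in pollen. Its highest pollen sites were at chr7:141313209-141313217 and chr6:166963081-166963089, at 0.13 and 0.0974, with 92 and 68 counts in pollen and 0 in root. The chromosome 6 site was also read in the leaf of plant 74, at 0.0998 from 920 counts, and had 0 counts in endosperm. Leaf and pollen thus had nearly equal levels of this site, and root had none above the floor.

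In plant 75 the highest root site, at chr8:138007555-138007563, stood at 0.22 from 2036 counts. It had 0 counts in pollen, where the upper limit was 0.00818, and 1 count in leaf. The second, at chr4:247089386-247089394, stood at 0.0908. The highest pollen sites, at chr2:2061587-2061595 and chr3:127313496-127313504, stood at 0.26 and 0.16, from 117 and 74 counts. Both had 0 counts in root, endosperm and leaf.

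Root sectors were not found in the pollen of the same plant. Of 36, 30 and 22 large root sectors, 0, 0 and 0 had a count in pollen, or 0 of 88 in all. Root sites below 0.01 were also seldom read in pollen, at 19 of 10020, 2 of 2222 and 2 of 2428, so the sectors were not shown to differ from rare sites in this. In the other direction 1 of 154 pollen 69 sectors, 0 of 57 pollen 74 sectors and 1 of 105 pollen 75 sectors had a count in root, or 2 of 316. Of the pollen sites below 0.01, 18 of 6414, 2 of 4370 and 1 of 3034 were read in root, which is as close to none. The site of plant 69, at chr4:184619107-184619115, had 18 counts in pollen and 1 in root.

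Among sites read in 1 plant only, the site of plant 75 was the one large sector with more than 1 count in both root and pollen. It lies at chr8:144145489-144145497 and had 79 counts in root and 5 in pollen, relative abundances of 0.0084 and 0.0111. It was also read in endosperm, at 0.0077 from 39 counts, and in leaf, at 0.00483 from 103 counts. Leaf was the lowest of the 4 tissues, and the pollen value rests on 5 counts. With both borders required, root 75 and pollen 75 shared 0 sites. The site was thus not read from both borders in both libraries. Endosperm and embryo are separate products of double fertilization. It was chosen after its values were seen.

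**Figure D3:**
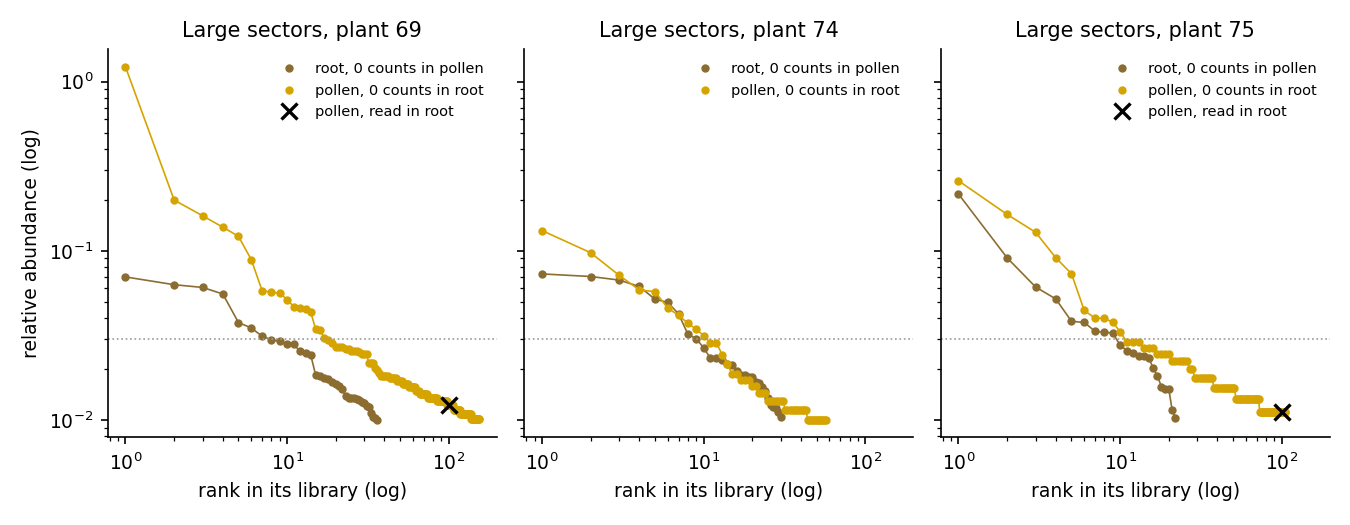
Relative abundance of each large sector (vertical, log scale) by its rank within the library (horizontal, log scale), with 1 panel for each plant. Circles had 0 counts in the other tissue, crosses had at least 1, and the dotted line marks 0.03. In plant 74 the curves start at 0.0730 in root and 0.13 in pollen, and pollen goes on to rank 57 where root ends at rank 30; 2 of 316 pollen sectors and 0 of 88 root sectors are crosses.

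Leaf gave a second view of the sectors in plants 74 and 75. Of the root sectors, 5 of 30 in plant 74 and 7 of 22 in plant 75 had a count in leaf, of 1 to 3 counts each. Their summed leaf abundance was 0.000651 and 0.000422, against 0.843 and 0.85 in root over all sectors. Of the pollen sectors, 4 of 57 in plant 74 and 4 of 105 in plant 75 were read in leaf, at summed leaf levels of 0.116 and 0.00577. In plant 74 almost all of this was 2 sites, the one on chromosome 6 above and one at chr1:4655014-4655022, at 0.0158 in leaf and 0.01 in pollen. Of the sites below 0.01, 24 of 2222 and 54 of 2428 in root 74 and 75 were read in leaf. In pollen 74 and 75 it was 45 of 4370 and 61 of 3034. A larger share of root than of pollen sectors had a count in leaf, but the leaf levels of those root sectors were all under 0.001. The single-plant rule leaves no count in the leaf of other plants as a background, and the difference was not tested.

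The single-plant condition drops a site that has even 1 count in another plant. In a setting added with the data in view, a site was kept when every other plant and Mu-inactive leaf stood below 0.1 times its level. Large sectors then numbered 84, 80 and 61 in root and 346, 147 and 217 in pollen. At 0.03 or more there were 20, 25 and 29 in root and 48, 28 and 25 in pollen, so plant 75 had more in root. At 0.1 or more there were 3, 5 and 6 in root and 10, 3 and 4 in pollen. The largest sectors were then more frequent in root than in pollen in plants 74 and 75 and less frequent in plant 69. Load kept its order, at 4.59, 3.63 and 3.54 in root and 25.4, 16 and 18.4 in pollen.

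With this wider set, sectors could also be looked for in the libraries of the other plants. Of the 84, 80 and 61 root sectors, 0, 2 and 0 were read in the pollen of the same plant. In the pollen of the other 2 plants, 0 and 1 of the root 69 sectors, 3 and 0 of the root 74 sectors and 1 and 0 of the root 75 sectors were read. The rule keeps a site below 0.1 times its level in other plants, but not in the other tissue of its own plant. As 1 count is 0.00143 in pollen 74 and 0.00222 in pollen 75, the smallest root sectors of other plants could not be read there. Same-plant and different-plant counts, in either direction, are therefore not alike, and no conclusion was drawn from them. For the 346 sectors of pollen 69, 12 were read in root 69, 0 in root 74 and 2 in root 75. For the 147 of pollen 74 the counts were 2 in root 69, 0 in root 74 and 1 in root 75, and for the 217 of pollen 75 they were 4, 2 and 1. Only for pollen 69 did its own root read the most, and root 69 was the deepest library and also read the most sectors of pollen 74 and 75.

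The 2 root 74 sectors read in pollen 74 in that set were small there. The larger, at chr7:175282097-175282105, stood at 0.16 from 1414 counts in root and at 0.00429 from 3 counts in pollen, and 17 plants read it. The highest sector of root 74, at chr2:22210275-22210283, stood at 0.25 from 2214 counts and had 0 counts in pollen.

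Small sites common to root and pollen were then counted in all 9 combinations of 3 roots with 3 pollen libraries. The set held sites read in none of the 14 other plants and not in Mu-inactive leaf, and below 0.1 throughout the 3 plants. Root 69 had 25 sites in common with pollen 69, 15 with pollen 74 and 10 with pollen 75. Root 74 had 2, 2 and 1 in common with pollen 69, 74 and 75, and root 75 had 4, 0 and 3. Only root 69 had more sites in common with its own pollen than with either of the others. Of the 25 sites of plant 69, 17 had 1 count in at least 1 library and 4 lay within 1000 bases of a site at 0.1 or more in some library.

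At equal depth few sites of this set were in common in any combination. The expected number of sites in common was 1.40, 0.0669 and 1.38 for the same plant in 69, 74 and 75. For different plants it was between 0 and 1.27. The means were 0.949 for the same plant and 0.384 for different plants, a log2 ratio of 1.31 (exact permutation test over the 6 pairings, one-sided, p = 0.17, the smallest that they can give). The value of 1.27 was that of root 69 with pollen 75, above the same-plant value of plant 74, so the groups overlapped. Most of that value came from the site at chr8:172176787-172176795, with 1252 counts in root 69 and 2 in pollen 75. In the same way, most of the 1.38 of plant 75 came from chr8:144145489-144145497, with 79 counts in root and 5 in pollen. Within each root, its own pollen gave the highest value. With sites within 1000 bases of a strong site left out, root 69 gave 0.92 with its own pollen and 1.25 with pollen 75. Roots 74 and 75 still had their highest value with their own pollen. The log2 ratio was 4.81 without plant 69, 0.64 without plant 74 and 1.66 without plant 75. The value of 4.81 rests largely on the site of plant 75 at chr8:144145489-144145497. When sites read in the 14 other plants were kept unless at 0.1 or more there, the means were 23.4 for the same plant and 18.3 for different plants, a log2 ratio of 0.35.

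The share of load in common was also small. Sites also read in the pollen of the same plant held 0.21%, 0.0143% and 0.67% of the load of root 69, 74 and 75. In root 75 most of this was the site at chr8:144145489-144145497, with 79 counts. The mean was 0.30% for the same plant and 0.40% for different plants (exact permutation test, one-sided, p = 0.5), a difference of -0.0996 points that became 0.34 without plant 69, -0.71 without plant 74 and 0.0778 without plant 75. The second mean rests on 1 site, at chr8:172176787-172176795, with 1252 counts in root 69 and 2 in pollen 75, which made the share of that combination 2.16%. Sites also read in the root of the same plant held 0.42%, 0.0297% and 0.14% of the load of pollen 69, 74 and 75, with a mean of 0.20% against 0.10% for different plants (p = 0.17 by the same exact test). With both borders required, same-plant combinations shared 3, 0 and 0 sites, and among different plants root 75 and pollen 69 shared 2 and all others 0.

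A single shared site met the rule for naming, with at least 10 counts and both borders in the library that ranks it. It lies at chr4:249524899-249524907 in plant 69, with 14 counts in root and 6 in pollen, relative abundances of 0.000658 and 0.00406, and 0 counts in endosperm. Another 3 shared sites of plant 69 had more endosperm counts but lay near a strong site: those at chr5:207222808-207222816, chr5:207222730-207222738 and chr8:166222209-166222217 had 9, 11 and 39 counts in the endosperm. These were chosen after their values were seen, and the part of misplaced reads in them was not tested.

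**Figure D4:**
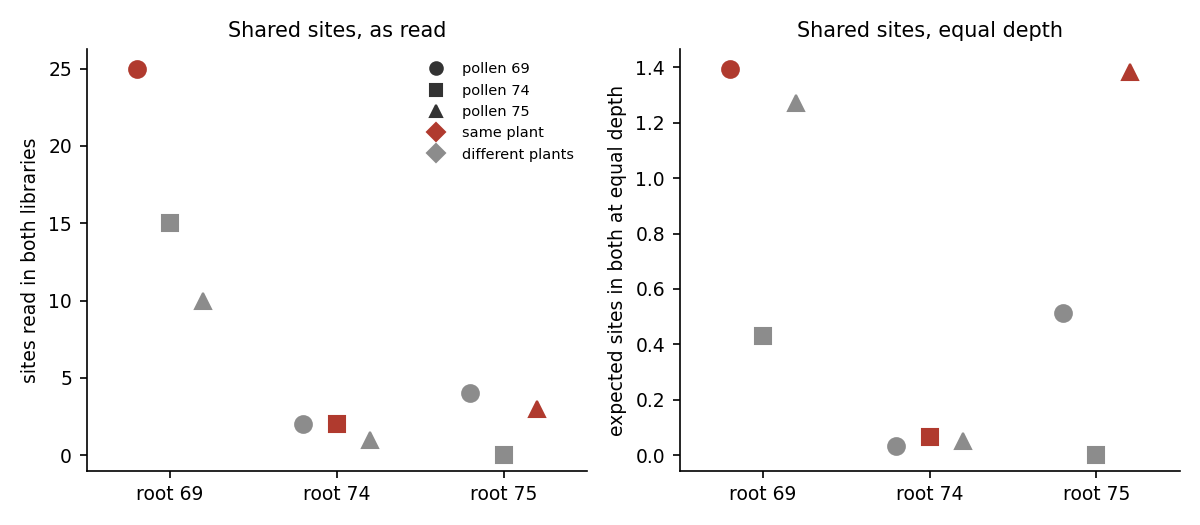
New sites read in both a root and a pollen library for the 9 combinations, as read (left) and as calculated after thinning to 451 reference counts (right), by root (horizontal) and pollen (symbol). Same-plant combinations are red and different-plant combinations grey. The left values are highest for root 69, with 25, 15 and 10 sites, and at equal depth no combination passes 1.40.

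Other pairs of tissues of the same plants were counted in the same way at equal depth. Root and endosperm had 3.34, 0.14 and 1.25 expected sites in common in plants 69, 74 and 75, and pollen and endosperm had 5.67, 2.59 and 4.14. Pollen and leaf had 5.05 and 3.46 in plants 74 and 75, while root and leaf had 0.55 and 1.5. Pollen thus had more sites in common with leaf than root did, but it also had more sites: per 1000000 pairs of a site of one tissue with a site of the other, the values in plant 75 were 0.44 for pollen and leaf and 2.41 for root and leaf. In plant 74 they were 0.44 and 0.59. The value of 2.41 rests on 1.5 expected sites. The site at chr8:144145489-144145497, with 79 counts in root 75 and 103 in leaf 75, was read in both.

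The chromosomes held similar shares of the new sites in both tissues. Chromosome 1 held 15.0% to 18.3% of new sites in root and 16.2% to 18.0% in pollen, and chromosome 10 held 5.51% to 6.53% and 5.94% to 6.66%. Chromosome 6 was the only chromosome whose share was higher in pollen in all 3 plants, by 0.40 to 0.90 percentage points. On the other 9 the sign differed between plants.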

How the data were processed

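The authors deposited whole-number counts per insertion site for both borders together and for each border, with 56 library columns each. Bowtie2 is named in the submitters' processing notes; the sources used here do not give its version, the genome build, the insertion caller or its filters. Positions are printed as deposited. The highest position on chromosome 1, 310879913, lies past the last gene end, 308332590, in the B73 gene table at hand, so no gene context was assigned and no sequence is shown.

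From these counts, relative abundance, site classes and shared sites were computed as defined in the report. The classes, lists and plant pairs were chosen with earlier results of these data known. The plant number pairs the tissues, since both came from 1 plant, and inherited sites in common (46, 39 and 33 against 9 or 10) checked it. Pairs were compared with exact sign-flip tests and roots with pollen libraries by exact permutation over 6 pairings. Thinning was calculated from the binomial expectation. Named were, per plant, the 2 highest new sites in root and in pollen, the 2 highest shared sites and the 2 highest embryo-wide sites, each with at least 10 counts and both borders; 1 shared and 0 embryo-wide sites met this. The procedure was tested on simulated data. Alternatives covered border, minimum count, scale, thresholds, single-plant rule, depth and leaving out each plant. Python 3.11.15, numpy 2.4.6, pandas 2.3.3, scipy 1.17.1 and matplotlib 3.10.9 were used.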

Additional observations from a re-analysis of the deposited data

How the results depend on the processing

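Of 158 recomputed values, 12 turned and 146 did not. The 146 include 6 counts of sites high in root and pollen but not in endosperm, all 0 and without a direction. Others could not turn. Leaving out the replicate block keeps the mean as it is. Minimum counts of 2 and 5 left the log2 difference in sector number at 1.76, because each large sector already had at least 5 counts. The tally is therefore not a measure of how firm the directions are. No p could pass 0.05 with 3 plants, so direction is all that could change. Load, sector number, sector load, rare load and distinct sites stayed higher in pollen in the mean under every alternative run. Leaving out 1 plant gave mean log2 differences of 2.57 to 2.72 for load, 1.51 to 2.18 for sector number, 1.02 to 1.93 for sector load, 3.09 to 3.62 for rare load and 3.02 to 3.66 for distinct sites. It gave -38.2 to -19.0 points for the share at large sectors, -0.00315 to 0.0806 for the inherited median, 0.64 to 4.81 for the log2 ratio of shared sites, -0.71 to 0.34 points for the shared root load and 0.076 to 0.11 points for the shared pollen load. The smallest load difference, 1.21, came with at least 5 counts per site, and the smallest sector difference, 0.53, with a threshold of 0.03. With at least 5 counts the share at large sectors was 13.4 points, and rare load gave no value because pollen 75 had no rare site left. The inherited median was -0.00424 with the right border alone and -0.21 with the library total as scale. The shared root load turned to 0.0296 with the left border, 0.095 with the right border, 0.27 with at least 5 counts, 0.0124 with both borders, 1.52 with sites of other plants kept, and 0.0917 with sites below 0.01. It also turned without plant 69, to 0.34, and without plant 75, to 0.0778; the cause was not tested. Without the replicate block, the exact permutation test of 3 against 3 libraries was used. It gave p = 0.1, the smallest it allows, for the mean log2 load difference of 2.66. For the inherited median difference of 0.0400 the same exact permutation test gave p = 0.9. Leaving out the block changes the test and not the mean, so no direction could change. In pollen, depth limits what can be read: a site below 0.00203 to 0.00665 is under the floor of 3 counts.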
